A study of Mus musculus with 4 samples.

Results

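Immediate early genes are switched on within minutes of a signal, before any protein has to be made, and heat shock genes code for the chaperones that cells make when proteins misfold. The set described here holds 37 such genes out of 31053 genes in the tables. They were taken by symbol from a fixed list of names, chosen with earlier results of these data known. The set contains 25 immediate early genes and 12 heat shock genes. The immediate early genes comprise 8 AP-1 subunits (Fos, Fosb, Fosl1, Fosl2, Jun, Junb, Jund and Atf3), 11 other early response genes (Egr1, Egr2, Egr3, Ier2, Ier5, Nr4a1, Nr4a2, Nr4a3, Klf4, Klf6 and Myc) and 6 feedback regulators (Ier3, Dusp1, Dusp2, Dusp5, Zfp36 and Btg2). The heat shock genes are Hspa1a, Hspa1b, Hspa8, Hsp90aa1, Hsp90ab1, Hsph1, Dnaja1, Dnajb1, Hspe1, Hspd1, Hspb1 and Bag3. All 37 were found in the files.

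The cells came from pancreatic tumours grown orthotopically in C57BL/6 mice from B6KPC3 cells, a mouse pancreatic ductal adenocarcinoma line. Starting 7 days after implantation, AT38, an inhibitor of reactive nitrogen species, was injected intraperitoneally in 2 doses a day for 7 days at 30 mg/kg per day in 1% carboxymethyl cellulose, and the vehicle mice were given the same solution without AT38. Each group has 2 libraries, and each library is a pool of 4 mice that was sorted for CD45, the surface protein of blood-derived cells, and loaded for droplet-based 3′ sequencing. The libraries serve to describe the immune cells of the tumour with and without AT38. B6KPC3 tumours come from 1 implanted line, the same in both groups. Because mice were pooled, p-values below measure the spread between pools, and with 2 libraries against 2 an exact permutation test could not go under p = 0.333.

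AP-1 is a dimer of a Fos and a Jun family protein that binds DNA and drives genes of activation and stress, and the EGR, NR4A and KLF factors act beside it. Dusp1, Dusp2 and Dusp5 code for phosphatases that switch MAP kinases off again, Zfp36 for a protein that speeds the decay of cytokine mRNAs, and Ier3 and Btg2 for regulators of survival and of growth. The stress-inducible Hsp70 genes Hspa1a and Hspa1b are driven by the factor HSF1, whereas Hspa8 and Hsp90ab1 code for chaperones that most cells make all the time. Both groups of genes are also known to be induced while solid tissue is being digested into single cells, so their level in a cell suspension joins what the cell expressed in the tumour with what it expressed during preparation. The dissociation enzyme, temperature and time are not given in the sources used here. The level in the tumour and the level after preparation cannot be told apart in these libraries, and comparisons between the groups rest on both having been prepared alike.

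Promoter sequences were searched for elements known to drive genes of these kinds, and they show how alike the inducible Hsp70 pair is. RefSeq promoter entries on GRCm38.p6, 250 bases before to 50 after a start, were matched for 29 of the 37 genes. The heat shock element, searched as GAANNTTC or TTCNNGAA, which read the same on both strands, lay in a promoter of 8 of 9 heat shock genes with an entry and in 9 of their 14 entries (64.3%), against 15.1% of 32851 mouse promoters. Dnajb1 was the exception. The cyclic AMP response element TGACGTCA, also the same on both strands, lay in 2 of 20 immediate early genes with an entry, Btg2 and Dusp1, and in 1.79% of all promoters. The CArG box of serum response factor lay in 3 of these 20 genes, Egr2, Dusp5 and Zfp36, and in 1.63% of all promoters. The AP-1 site TGANTCA lay in none of the 20, against 7.81% of all promoters. A heat shock element lay in 3 of the 20 and in 12.5% of their entries. A match is a description of letters, not of binding. The 250 bases before the start are printed 5′ to 3′ on the gene's strand, the matches in capitals.

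Heat shock elements are in capitals in the first 3 sequences, the cyclic AMP response element in those of Btg2 and Dusp1, and the CArG box in that of Zfp36. The stretches are chr17:34972157-34972406 (minus strand) for Hspa1a, chr17:34959239-34959488 (minus strand) for Hspa1b, chr1:55087898-55088147 (plus strand) for Hspe1, chr1:134079156-134079405 (minus strand) for Btg2, chr17:26508473-26508722 (minus strand) for Dusp1, and chr7:28379229-28379478 (minus strand) for Zfp36, all on GRCm38.p6.
Hspa1a: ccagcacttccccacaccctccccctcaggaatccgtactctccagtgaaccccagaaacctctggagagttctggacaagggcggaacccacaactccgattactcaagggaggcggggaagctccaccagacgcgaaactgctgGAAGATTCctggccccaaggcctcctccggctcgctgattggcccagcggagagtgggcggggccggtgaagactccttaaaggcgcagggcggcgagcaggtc
Hspa1b: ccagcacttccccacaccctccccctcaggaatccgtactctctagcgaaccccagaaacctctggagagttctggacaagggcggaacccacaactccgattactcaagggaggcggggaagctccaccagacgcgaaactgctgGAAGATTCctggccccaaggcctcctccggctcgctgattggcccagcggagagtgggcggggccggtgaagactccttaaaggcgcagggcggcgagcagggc
Hspe1: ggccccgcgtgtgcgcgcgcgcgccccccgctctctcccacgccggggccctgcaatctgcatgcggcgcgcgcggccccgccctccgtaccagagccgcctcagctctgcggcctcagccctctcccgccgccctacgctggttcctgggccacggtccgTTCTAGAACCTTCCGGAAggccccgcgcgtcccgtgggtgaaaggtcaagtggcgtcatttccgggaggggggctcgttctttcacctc
Btg2: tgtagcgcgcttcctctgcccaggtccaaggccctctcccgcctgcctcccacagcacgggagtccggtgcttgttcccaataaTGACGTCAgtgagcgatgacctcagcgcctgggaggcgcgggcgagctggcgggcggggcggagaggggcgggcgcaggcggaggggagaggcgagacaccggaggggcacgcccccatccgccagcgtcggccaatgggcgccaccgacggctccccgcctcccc
Dusp1: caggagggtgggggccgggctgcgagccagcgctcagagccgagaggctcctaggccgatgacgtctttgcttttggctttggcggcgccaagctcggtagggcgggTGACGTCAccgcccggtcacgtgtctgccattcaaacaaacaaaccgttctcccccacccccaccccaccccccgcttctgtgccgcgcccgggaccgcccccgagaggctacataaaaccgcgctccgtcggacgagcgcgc
Zfp36: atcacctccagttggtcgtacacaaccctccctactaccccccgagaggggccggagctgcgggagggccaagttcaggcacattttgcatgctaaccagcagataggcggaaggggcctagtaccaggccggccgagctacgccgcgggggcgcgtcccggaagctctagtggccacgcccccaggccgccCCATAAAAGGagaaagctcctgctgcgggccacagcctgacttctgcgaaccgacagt

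Hspa1a and Hspa1b lie side by side on chromosome 17, at chr17:34969190-34972156 and chr17:34956436-34959238 on the minus strand (GENCODE, GRCm38). Their promoter windows shared 296 of 300 bases and their coding sequences 99.6% of aligned bases, while the stretches after the stop codon shared 71.6% of aligned bases. How the authors' counting split reads between them is not known, so each count is uncertain and their sum is given beside them.

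The 4 libraries held 24294215 to 34386076 UMIs, and 14172 of 18001 barcodes were kept as cells, 2903 to 4683 per library. The 37 genes made up 2.37% to 2.57% of the UMIs of the kept cells in each library. Cells were grouped by marker genes with the 37 genes left out of the clustering. Epithelial cells and mast cells or basophils also had at least 20 cells in every library but were not tested. The test was run in 6 classes: 4419 neutrophils, 1696 mononuclear phagocytes (monocytes and macrophages), 1517 dendritic cells, 1236 B cells, 3099 T cells and 383 NK cells. The classes were named by their marker genes, so the levels of these markers are no independent check of the names. In neutrophils S100a8, for example, was at 22972 and 23422 CPM in the AT38 libraries and 25298 and 27112 CPM in the vehicle libraries. CPM is the UMI count scaled to a class total of 1000000. The library vehicle 1 stood apart for Hspa1a, which was highest there in all 6 classes, and 24 barcodes occurred in more than 1 library. In the T cells of AT38 2, red blood cell markers reached 1732 CPM, against 0 CPM in AT38 1 and at most 0.38 CPM in the vehicle libraries.

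Immediate early genes as a sum had their highest mean in monocytes and their lowest in epithelial cells. The sum of the heat shock genes had its highest mean in epithelial cells and its lowest in neutrophils. Over 13 classes with at least 20 cells in every library, the immediate early sum was 28516 ± 1272 CPM in monocytes (mean ± SD of the 4 libraries), 26832 ± 2904 CPM in NK cells and 24230 ± 1351 CPM in neutrophils, against 14396 ± 554 CPM in type 1 dendritic cells and 11711 ± 2344 CPM in epithelial cells. The heat shock sum was 7038 ± 598 CPM in epithelial cells and 6752 ± 172 CPM in type 1 dendritic cells, and 3307 ± 547 CPM in neutrophils, the lowest class. Epithelial cells do not carry CD45 and numbered 36 to 70 per library. The first rank of either sum is not settled. The NK cell mean lay within its own SD of the monocyte mean, and the epithelial mean within its own SD of the type 1 dendritic cell mean. These levels are descriptions over all 4 libraries, with no test.

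**Figure D1:**
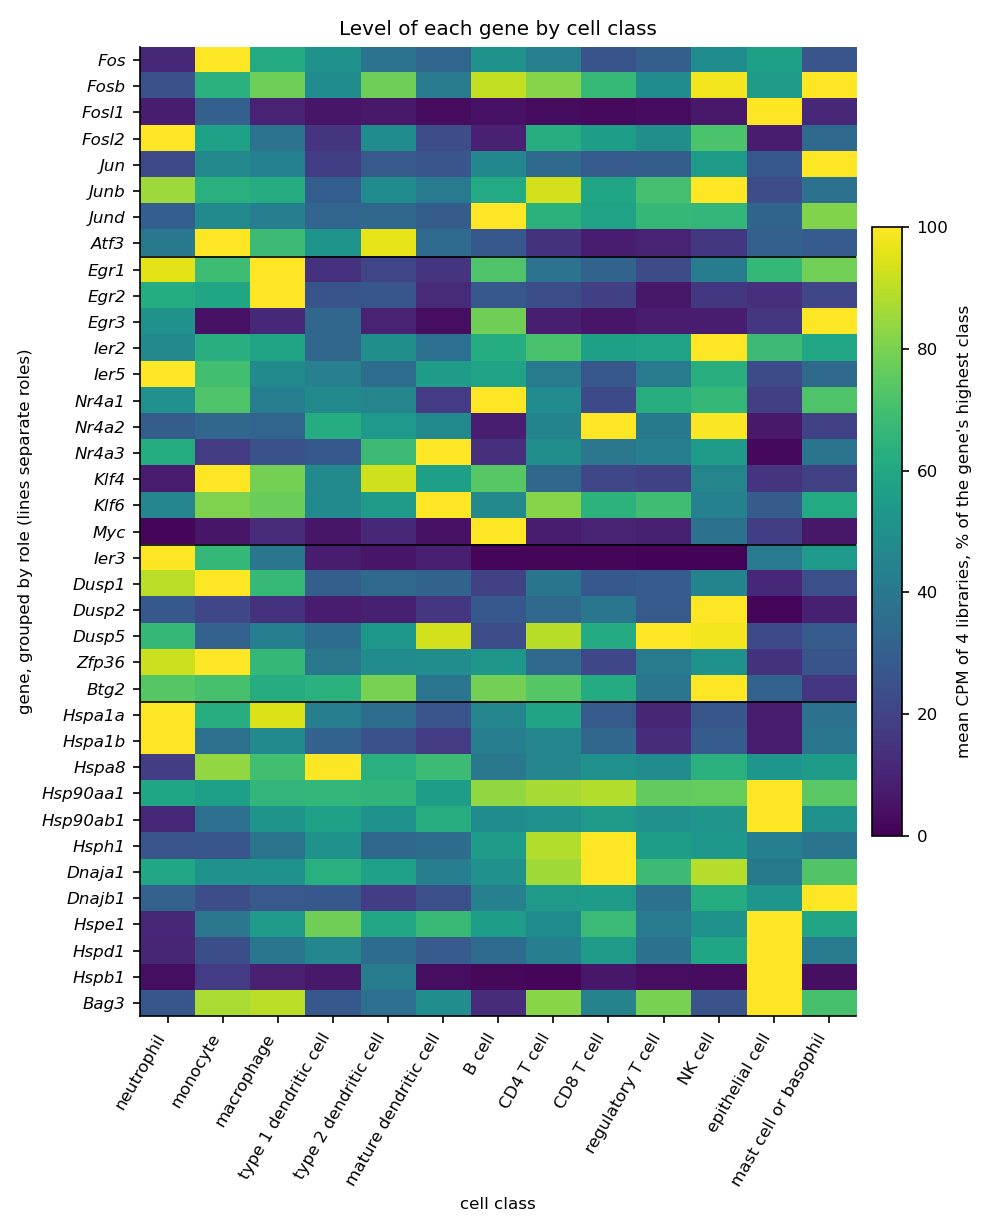
Each cell gives the mean CPM of 1 gene in 1 cell class over the 4 libraries, as a percent of the class where that gene was highest; genes run down the page by role and 13 cell classes run across. Ier3 is brightest in neutrophils, Myc in B cells, Fos in monocytes, and the constitutive chaperone Hsp90ab1 is brightest in epithelial cells and darkest in neutrophils.

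Most individual genes differed more between classes than the sums did. Of the 37 genes, 14 differed more than 10-fold between their highest and lowest class, and for 16 the highest class lay above the next one in every library. For the remaining genes the highest class overlapped the next one. These counts were not set against all genes. Ier3 was at 1722 ± 234 CPM in neutrophils and 16.7 ± 7.31 CPM in regulatory T cells, a ratio of 103. Monocytes followed neutrophils at 1146 ± 166 CPM without overlap, and the lymphocyte classes lay between 16.7 and 29.7 CPM on average. Myc, a driver of cell growth, was at 261 ± 31.5 CPM in B cells and 4.13 ± 1.79 CPM in neutrophils. The phosphatase gene Dusp2 was highest in NK cells, at 2264 ± 126 CPM, and lowest in epithelial cells, at 32.9 ± 21.0 CPM. Nr4a3 was highest in mature dendritic cells, at 1190 ± 189 CPM, where its level did not overlap that of type 2 dendritic cells, at 814 ± 51.6 CPM.

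The AP-1 subunits did not share 1 pattern. Fos was at 3330 ± 223 CPM in monocytes, above macrophages at 2033 ± 137 CPM, and lowest in neutrophils at 368 ± 68.4 CPM. Fosl2 was the reverse, with 795 ± 78.7 CPM in neutrophils as its highest level and 62.9 ± 20.4 CPM in epithelial cells as its lowest. Fosl1 was at 55.1 ± 5.06 CPM in epithelial cells and 1.46 ± 1.21 CPM in CD8 T cells. Jund, whose level is known to be steadier than that of its relatives, was highest in B cells, at 3397 ± 361 CPM, and differed 3.41-fold across the classes. Fos thus separated neutrophils, its lowest class, from monocytes, while Dusp1, the phosphatase gene induced with it, was high in both, at 3967 ± 174 CPM in monocytes and 3555 ± 326 CPM in neutrophils, 2 levels that overlapped between libraries.

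Among the heat shock genes, neutrophils had the lowest level of several chaperones and the highest mean of the inducible Hsp70 genes Hspa1a and Hspa1b. Hsp90ab1 was at 2804 ± 244 CPM in epithelial cells and 315 ± 18.3 CPM in neutrophils, and Hspa8, the constitutive Hsp70, was at 2744 ± 108 CPM in type 1 dendritic cells and 495 ± 7.91 CPM in neutrophils. Hspd1, the mitochondrial Hsp60, was at 428 ± 66.9 CPM in epithelial cells and 45.8 ± 6.63 CPM in neutrophils. Other inducible genes had other patterns: Hspb1 and Bag3 were highest in epithelial cells, at 65.2 ± 41.4 CPM and 47.4 ± 7.67 CPM, and Hsph1 was at 156 ± 16.6 CPM in CD8 T cells and 41.1 ± 12.1 CPM in neutrophils, its highest and lowest classes. Hspa1b was at 844 ± 294 CPM in neutrophils and 67.0 ± 29.9 CPM in epithelial cells, but its neutrophil level overlapped that of macrophages, at 401 ± 126 CPM. The order of the Hspa1b classes between neutrophils and epithelial cells cannot be told from these libraries, since each class overlapped its neighbour.

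The neutrophil level of the inducible Hsp70 genes came from few cells. The 5% of neutrophils richest in each gene held 98.8% of the Hspa1b UMIs and 98.5% of the Hspa1a UMIs, whereas the same share of cells held 58.2% to 91.2% of the UMIs of these genes in the other 5 classes. Cluster 21, 306 of the 4419 neutrophils, held 82.4% to 91.1% of the Hspa1a UMIs and 78.1% to 84.2% of the Hspa1b UMIs of the neutrophils of each library. Its other leading genes included Hmox1, Hilpda, Ero1l and Bnip3, genes known to be induced by oxidative stress or low oxygen. Within single cells, Hspa1a and Hspa1b levels were correlated with r between 0.47 in 383 NK cells and 0.71 in 1696 mononuclear phagocytes. Fos and Fosb were correlated with r between 0.46 and 0.52 in the 5 other classes and with r = 0.12 in 4419 neutrophils, and Fos and Hspa1b with r between 0.07 and 0.24 in the 6 classes. These values describe cells of the same 4 libraries, and cell depth and shared preparation enter them.

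In neutrophils, AT38 went with lower levels of several feedback and transcription factor genes of the early response. With edgeR's quasi-likelihood test across all genes, 5 of 36 tested genes passed an adjusted p of 0.05, all of them lower in AT38 neutrophils, against 4.68% of 8349 genes called in either direction and 3.44% called lower. They were Ier3, Dusp1, Egr2, Klf6 and Jund, and no heat shock gene passed. Levels in this and the following comparisons are CPM scaled by the trimmed mean of M-values (TMM CPM), and fold changes are AT38 over vehicle on the log2 scale with their SE.

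Ier3 was at 1463 and 1498 TMM CPM in the AT38 libraries, against 1901 and 2110 TMM CPM in the vehicle libraries. Both AT38 values lay under both vehicle values, with a log2 fold change of -0.44 ± 0.08 and an adjusted p of 0.0033 by edgeR. Egr2, a zinc finger factor of macrophage and lymphocyte activation, was at 98.7 and 97.5 TMM CPM with AT38 and at 141 and 143 TMM CPM with vehicle (log2 fold change -0.54 ± 0.11, adjusted p = 0.0071 by edgeR). The libraries of a group differed little for this gene and the groups did not overlap. Klf6 was at 976 and 995 TMM CPM with AT38 and at 1326 and 1168 TMM CPM with vehicle (log2 fold change -0.34 ± 0.09, adjusted p = 0.027 by edgeR). Jund was at 884 and 940 TMM CPM with AT38 and at 1154 and 1109 TMM CPM with vehicle (log2 fold change -0.31 ± 0.08, adjusted p = 0.037 by edgeR). Dusp1 was at 3411 and 3042 TMM CPM with AT38 and at 3812 and 4099 TMM CPM with vehicle (log2 fold change -0.29 ± 0.08, adjusted p = 0.0499 by edgeR). The groups were separate for each of the 5 genes. Ier3 and Egr2 passed whichever library was left out. Jund missed without AT38 1 and without vehicle 1 (adjusted p = 0.23 and 0.14 by edgeR), as did Klf6 (0.094 and 0.24), and Dusp1 missed without AT38 2 and without vehicle 2 (0.30 and 0.17).

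The remaining 31 tested genes did not pass, and their estimates went both ways. Of the 36, 12 lay lower in both AT38 libraries than in both vehicle libraries and 3 lay higher, where 23.4% and 24.9% of all genes did so, and 23 had an estimate below 0, against 48.3% of all genes. Fosl1 had 1.59 and 2.70 TMM CPM with AT38 and 8.49 and 5.61 TMM CPM with vehicle (adjusted p = 0.057 by edgeR), at few UMIs. Zfp36 was at 2515 and 2151 TMM CPM with AT38 and at 2559 and 2957 TMM CPM with vehicle (adjusted p = 0.16 by edgeR). The AP-1 member Atf3, a stress-induced gene, stood on the other side, at 504 and 539 TMM CPM with AT38 and 489 and 425 TMM CPM with vehicle (adjusted p = 0.29 by edgeR). Dnajb1, the Hsp40 partner of Hsp70, was at 48.5 and 68.8 TMM CPM with AT38 and at 148 and 74.0 TMM CPM with vehicle (adjusted p = 0.53 by edgeR). In vehicle 1, 125 of its 365 UMIs came from 1 cell.

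**Figure D2:**
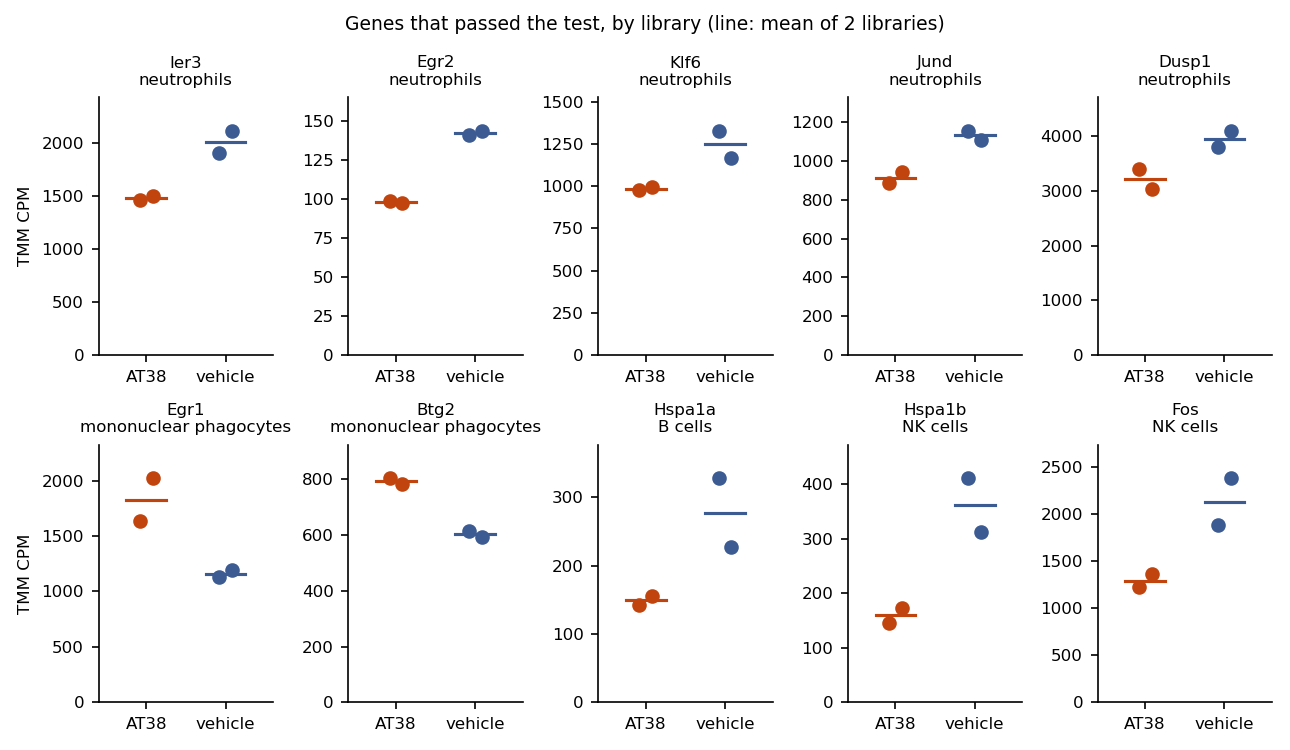
Points give the TMM CPM of 1 library and lines the mean of 2 libraries, AT38 left and vehicle right, for each of the 10 pairs of gene and class that passed the test; each panel has its own axis from 0. Both AT38 points lie below both vehicle points in 8 panels and above them for Egr1 and Btg2 in mononuclear phagocytes.

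Neutrophils fell into 5 clusters, and the 5 genes were followed within each. Klf6 was lower on average with AT38 in all 5 clusters and did not overlap the vehicle values in 4. Egr2 was lower without overlap in 4 of 5 clusters, cluster 21 being the exception. Ier3 was lower without overlap in 2 clusters, among them cluster 7, led by Siglecf, where it was at 1086 and 1143 CPM with AT38 and at 1405 and 1796 CPM with vehicle. In clusters 2, 4 and 5 its groups overlapped, with means of 1820, 1895 and 1942 CPM with AT38 and 1841, 1959 and 1920 CPM with vehicle. Jund was lower without overlap in 2 clusters and higher without overlap in cluster 2, led by Stfa2l1. Dusp1 was lower without overlap in 3 clusters, and in the other two, clusters 2 and 5, the AT38 mean was the higher one and the groups overlapped. Cluster 7 held 39.7% and 35.8% of the AT38 neutrophils and 19.4% and 25.1% of the vehicle neutrophils, and cluster 5, led by Cxcl3 and Fpr1, 22.3% and 20.8% of the AT38 and 38.6% and 38.9% of the vehicle neutrophils. Of the 5 clusters, cluster 7 had the lowest mean over the 4 libraries for Ier3, at 1357 ± 324 CPM, and for Dusp1, at 2537 ± 290 CPM. The shares say which cells entered the sums, and their part in the pooled differences was not tested. Genes that define the clusters may themselves differ between the groups.

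With every cluster given the same weight, a fit added after seeing the data, none of the 5 genes passed, and limma's log2 fold changes were -0.33 for Egr2, -0.19 for Ier3, -0.18 for Klf6, -0.09 for Jund and -0.06 for Dusp1, with adjusted p between 0.23 and 0.83. Only Atf3 passed there, higher with AT38 (log2 fold change 0.40, adjusted p = 0.017 by limma). Scaling also mattered in this class, since TMM moved the groups by 0.13 on the log2 scale relative to total UMIs. On total UMIs alone Ier3 and Egr2 remained lower and Atf3 was called higher. The 9 neutrophil markers summed to 57556 and 59450 CPM in the AT38 neutrophils and 60697 and 63472 CPM in the vehicle neutrophils. Of them, 3 (S100a8, Csf3r and Clec4d) were lower and 2 (Retnlg and Il1r2) higher with AT38 without overlap, 4 overlapped and none was at 0. The 8 acinar markers, most of their UMIs from Prss2, were at 147 and 146 CPM with AT38 and 54.9 and 52.6 CPM with vehicle. Among these 8, 3 (Prss2, Cpa1 and Try4) were higher and 1 (Try5) lower with AT38 without overlap, and 4 overlapped. Cpa1 was at 0 in both vehicle libraries. Their part in the result was not tested.

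Hspa1a and Hspa1b showed no call in neutrophils, where libraries of 1 group differed. Hspa1b was at 787 and 1033 TMM CPM with AT38 and at 1117 and 455 TMM CPM with vehicle, and Hspa1a at 475 and 480 TMM CPM with AT38 and at 619 and 288 TMM CPM with vehicle. The vehicle libraries enclosed both AT38 libraries for each gene. Without vehicle 1 both genes were called higher (log2 fold changes 1.00 and 0.73) and without vehicle 2 Hspa1a was called lower (-0.37), so the direction rests on which vehicle library is kept. Without vehicle 1, 9 genes of the set passed, 5 of them higher, where 3.88% of 8805 genes were called, and without vehicle 2, 8 passed, 1 of them higher, where 6.13% of 8812 genes were called. Within cluster 21, which these genes lead, Hspa1b was at 12622 and 12544 CPM with AT38 and at 7002 and 5657 CPM with vehicle, and Hspa1a at 7907 and 6308 CPM with AT38 and at 4452 and 3573 CPM with vehicle. The groups did not overlap there, but the cluster was formed on these same cells, and the values are a description.

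**Figure D3:**
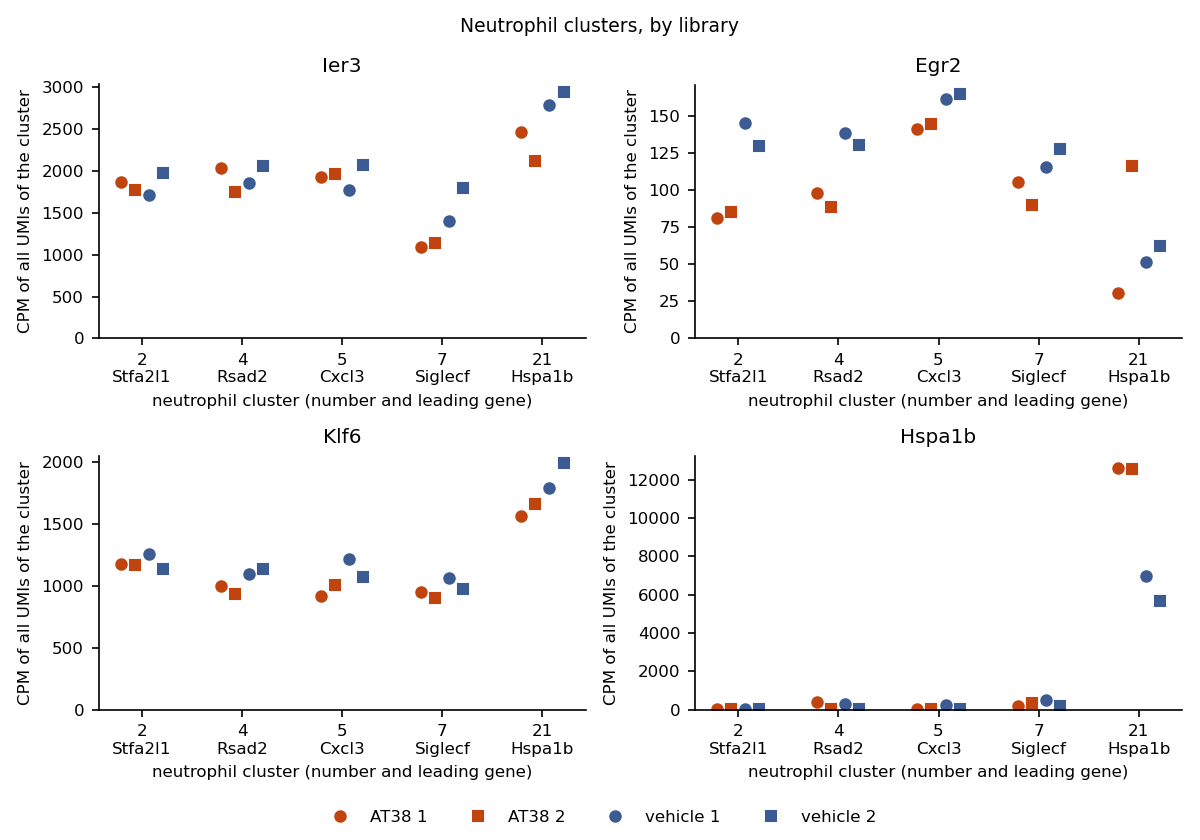
Panels show Ier3, Egr2, Klf6 and Hspa1b, and each point is the CPM of 1 library in 1 of 5 neutrophil clusters, AT38 libraries left of vehicle libraries. Egr2 and Klf6 are lower with AT38 in most clusters, Ier3 in clusters 7 and 21, and Hspa1b is high in cluster 21 alone, at 12622 and 12544 CPM with AT38 and 7002 and 5657 CPM with vehicle.

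Of 30 further immediate early and dissociation-linked genes outside the set, 10 were lower in AT38 neutrophils and none was higher by edgeR, against 3.44% of all genes called lower and 1.25% called higher. An unadjusted p under 0.05 was reached by 15 of the 30, against 17.9% of all genes. The list was chosen with earlier results of these data known, so its counts are a description and no independent support. The 10 were Socs3, Nfkbia, Nfkbiz, Gadd45a, Cebpb, Pnrc1, Sqstm1, Tnfaip3, Trib1 and Klf2, among them feedback genes of cytokine and NF-kB signalling. Tnfaip3, which restrains NF-kB, was at 1153 and 1184 TMM CPM with AT38 and at 1832 and 1762 TMM CPM with vehicle (log2 fold change -0.62 ± 0.08, adjusted p = 9.07e-05 by edgeR). Of 28 further cytosolic and mitochondrial chaperones tested, 1 was lower, Hspa4l, at 268 and 262 TMM CPM with AT38 and 449 and 403 TMM CPM with vehicle (log2 fold change -0.68 ± 0.09, adjusted p = 0.000145 by edgeR). Of 18 chaperones and stress genes of the endoplasmic reticulum, Xbp1 was lower (log2 fold change -0.38 ± 0.09, adjusted p = 0.017 by edgeR). The median log2 fold change was -0.19 for the 30 further early genes, -0.06 for the 36 tested genes of the set and 0.01 for all 8349 genes. In the other 5 classes edgeR called no gene of these 3 further lists, where it called 0% to 1.63% of all genes. With shares this low, the lack of calls does not set the lists apart from other genes. At most 7 genes of a list had an unadjusted p under 0.05 by edgeR. These were 7 of 28 further early genes tested in B cells, against 7.61% of all genes.

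In mononuclear phagocytes Egr1 and Btg2 were higher with AT38, 2 of 37 genes tested, against 1.63% of 10579 genes called, and none was lower, against 0.624% of all genes. An unadjusted p under 0.05 was reached by 9 of 37, against 10.3% of all genes. Egr1, a zinc finger factor induced by serum and MAP kinase signals, was at 1636 and 2021 TMM CPM with AT38 and at 1129 and 1190 TMM CPM with vehicle. The groups did not overlap (log2 fold change 0.66 ± 0.10, adjusted p = 0.0049 by edgeR). Btg2, an antiproliferative gene, was at 802 and 781 TMM CPM with AT38 and at 614 and 591 TMM CPM with vehicle (log2 fold change 0.39 ± 0.09, adjusted p = 0.049 by edgeR). Of the 37 genes, 23 had a positive estimate and 14 a negative one, where 49.8% of all genes were negative. Positive estimates were found for all 11 early response genes outside the AP-1 and feedback groups, 7 of 8 AP-1 subunits and 3 of 6 feedback regulators. In both AT38 libraries 13 of the 37 lay higher and 4 lower than in both vehicle libraries, where 20.7% and 20.3% of all genes did so. Ier2 was at 613 and 640 TMM CPM with AT38 and at 479 and 483 TMM CPM with vehicle (adjusted p = 0.069 by edgeR), Atf3 at 908 and 1177 TMM CPM with AT38 and at 740 and 815 TMM CPM with vehicle (adjusted p = 0.16 by edgeR), and Jun at 1110 and 1118 TMM CPM with AT38 and at 880 and 960 TMM CPM with vehicle (adjusted p = 0.21 by edgeR).

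The heat shock genes of these phagocytes leaned the other way without a call. Of 12, 10 had a negative estimate, against 49.8% of all genes, and 4 lay lower in both AT38 libraries, where 20.3% of all genes did so. Hsph1, an Hsp110 chaperone, was at 53.4 and 39.6 TMM CPM with AT38 and at 72.8 and 58.9 TMM CPM with vehicle (log2 fold change -0.47 ± 0.16, adjusted p = 0.28 by edgeR). The lean was not shared by both kinds of phagocyte. Among monocytes, Hsp90aa1, Hsp90ab1, Hspe1 and Hspd1 lay higher with AT38 without overlap, and Hsph1 and Dnaja1 lower. Among macrophages, Hspa8, Hsph1, Dnaja1 and Bag3 lay lower without overlap, and the other heat shock genes overlapped.

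Egr1 and Btg2 lay above both vehicle libraries in both AT38 libraries in either kind of phagocyte. In the macrophage-like cluster, led by Arg1 and C1qa, Egr1 was at 1816 and 2262 CPM with AT38 and at 1140 and 1244 CPM with vehicle, and in the monocyte-like cluster, led by Vcan and Chil3, at 1161 and 1249 CPM with AT38 and at 1057 and 996 CPM with vehicle. In monocytes alone Egr1 did not pass (log2 fold change 0.23, adjusted p = 0.66 by edgeR). Summed levels of 8 macrophage markers were 10124 and 11030 CPM in the AT38 phagocytes and 6447 and 7490 CPM in the vehicle phagocytes. Of these markers, 7 were higher and 1 (Trem2) lower with AT38 without overlap, and none was at 0. The macrophage-like cluster itself held 66.3% and 64.7% of the AT38 phagocytes and 76.1% and 70.5% of the vehicle phagocytes. The part of the markers and of these shares in the result was not tested. Without vehicle 1 and without vehicle 2 no gene of the set passed, with Egr1 at adjusted p = 0.11 and 0.074 by edgeR, and Btg2 fell short under 12 of 16 alternatives. Without AT38 1, 5 genes passed, where 3.99% of 10739 genes were called.

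In dendritic cells no gene of the set passed by edgeR, and 0% of 11002 genes did. At an unadjusted p under 0.05, 4 of 37 genes were reached, against 4.95% of all genes. An estimate below 0 was found for 19 of 37 genes, against 50.1% of all genes, and 10 lay lower and 6 higher in both AT38 libraries, where 18% and 17.8% of all genes did so. Among the 4 were the inducible Hsp70 genes. Hspa1a was at 113 and 107 TMM CPM with AT38 and at 252 and 166 TMM CPM with vehicle (log2 fold change -0.92 ± 0.20, adjusted p = 0.65 by edgeR), and Hspa1b at 153 and 117 TMM CPM with AT38 and at 330 and 209 TMM CPM with vehicle (adjusted p = 0.91 by edgeR). The groups did not overlap for either, and DESeq2 called both lower, 2 of the 9 genes it called in all. The 9 neutrophil markers summed to 1124 and 989 CPM in these AT38 cells and 1365 and 1351 CPM in the vehicle cells, 7 of them lower with AT38 without overlap and none at 0, and their part in the result was not tested. Jun was at 512 and 528 TMM CPM with AT38 and at 621 and 658 TMM CPM with vehicle, and Nr4a2 at 572 and 560 TMM CPM with AT38 and at 478 and 498 TMM CPM with vehicle (adjusted p = 0.79 and 0.94 by edgeR). The small heat shock gene Hspb1 read 51.9 TMM CPM in AT38 2, where 264 of its 277 UMIs came from 1 cell. Without AT38 1, 3 genes passed by edgeR, Nr4a3 and Hspb1 higher and Egr2 lower, where 3.06% of 11390 genes were called.

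In B cells Hspa1a was lower with AT38, 1 of 34 genes tested, against 0.243% of 7817 genes called and 0.0895% called lower. An unadjusted p under 0.05 was reached by 10 of 34 genes, against 7.61% of all genes. Hspa1a was at 142 and 156 TMM CPM with AT38 and at 328 and 227 TMM CPM with vehicle (log2 fold change -0.90 ± 0.17, adjusted p = 0.013 by edgeR). Without vehicle 1 the log2 fold change was -0.61 and the adjusted p 0.058 by edgeR. The 9 neutrophil markers summed to 85.9 and 142 CPM in the AT38 B cells and 252 and 161 CPM in the vehicle B cells. Of them, 6 were lower with AT38 without overlap, Cxcr2 was at 0 in AT38 2, and their part in the result was not tested. Hspa1b was at 197 and 369 TMM CPM with AT38 and at 501 and 384 TMM CPM with vehicle (adjusted p = 0.79 by edgeR). Its groups were separate but close, and those of its partners Hsph1 and Dnajb1 were also separate, at 56.5 and 84.1 TMM CPM with AT38 and 98.5 and 106 TMM CPM with vehicle for Hsph1, and at 85.6 and 104 TMM CPM with AT38 and 127 and 148 TMM CPM with vehicle for Dnajb1 (adjusted p = 0.26 and 0.21 by edgeR).

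The early response genes of B cells went both ways. Dusp1 was at 683 and 596 TMM CPM with AT38 and at 841 and 997 TMM CPM with vehicle (adjusted p = 0.11 by edgeR), and Fos at 1686 and 1254 TMM CPM with AT38 and at 1820 and 2102 TMM CPM with vehicle (adjusted p = 0.27 by edgeR). Atf3 stood on the other side, at 385 and 436 TMM CPM with AT38 and 252 and 282 TMM CPM with vehicle (log2 fold change 0.61 ± 0.14, adjusted p = 0.055 by edgeR). Nr4a3, an orphan receptor gene that follows antigen receptor signals, was at 145 and 294 TMM CPM with AT38 and at 87.3 and 128 TMM CPM with vehicle (adjusted p = 0.79 by edgeR), with a larger gap between the AT38 libraries than between the groups' nearest values. Of the 34 genes, 15 lay lower and 4 higher in both AT38 libraries, where 18.3% and 18.9% of all genes did so. An estimate below 0 was found for 24 of the 34, against 48.9% of all genes. Leaving out 1 library moved the number of called genes to 2 without AT38 1, 3 without AT38 2, 4 without vehicle 1 and 5 without vehicle 2, where 0.523%, 0.737%, 1.41% and 0.834% of all genes tested were called.

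In T cells no gene of the set passed by edgeR or by DESeq2, where edgeR called 0.117% of 10250 genes and 0.0683% as lower. An unadjusted p under 0.05 was reached by 8 of 36 genes, against 7.32% of all genes. Of the 36, 10 lay lower and 6 higher in both AT38 libraries, where 18.7% and 18.6% of all genes did so, and 21 had an estimate below 0, against 50.4% of all genes. The NR4A receptors, known as readouts of T cell receptor signalling, had positive estimates. Nr4a2 was at 694 and 736 TMM CPM with AT38 and at 592 and 614 TMM CPM with vehicle, and Nr4a3 at 566 and 540 TMM CPM with AT38 and at 506 and 431 TMM CPM with vehicle. For both the groups were separate (adjusted p = 0.30 and 0.42 by edgeR). Hsph1 was at 121 and 118 TMM CPM with AT38 and at 144 and 145 TMM CPM with vehicle, and Hspa8 at 1293 and 1287 TMM CPM with AT38 and at 1486 and 1414 TMM CPM with vehicle (adjusted p = 0.39 and 0.53 by edgeR). Hspa1a was set apart by 1 library, with 108 and 129 TMM CPM with AT38 and 315 and 110 TMM CPM with vehicle. The neutrophil markers summed to 131 and 126 CPM in the AT38 T cells and 205 and 154 CPM in the vehicle T cells, with 4 of 9 lower and 1 higher without overlap and none at 0, and their part was not tested. Without vehicle 2 both inducible Hsp70 genes were called lower by edgeR, at log2 fold changes of -1.40 for Hspa1a and -1.23 for Hspa1b, and without vehicle 1 neither was, while Atf3 and Nr4a3 were called higher and Egr2 lower. In these 2 fits 0.423% and 0.32% of all genes were called.

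NK cells were the smallest class tested, with 112 and 122 cells in the AT38 libraries and 56 and 93 in the vehicle libraries. Fos and Hspa1b were lower there. These were 2 of 33 genes tested, against 0.0777% of 5151 genes, or 4 genes, called. Fos was at 1222 and 1360 TMM CPM with AT38 and at 1878 and 2376 TMM CPM with vehicle (log2 fold change -0.72 ± 0.14, adjusted p = 0.013 by edgeR). Hspa1b was at 145 and 173 TMM CPM with AT38 and at 411 and 312 TMM CPM with vehicle (log2 fold change -1.16 ± 0.19, adjusted p = 0.0025 by edgeR). Groups were separate for both genes. An unadjusted p under 0.05 was reached by 10 of the 33 genes, against 5.84% of all genes, and 28 had an estimate below 0, against 50.3% of all genes, and 21 lay lower in both AT38 libraries, where 17.7% of all genes did so. Dusp1 was at 1549 and 1680 TMM CPM with AT38 and at 2098 and 2230 TMM CPM with vehicle, Jun at 1141 and 1168 TMM CPM with AT38 and at 1537 and 1423 TMM CPM with vehicle, and Hspa1a at 70.4 and 107 TMM CPM with AT38 and at 207 and 139 TMM CPM with vehicle (adjusted p = 0.49, 0.76 and 0.36 by edgeR). The neutrophil markers summed to 79.7 and 91.5 CPM in the AT38 NK cells and 123 and 73.0 CPM in the vehicle NK cells, groups that overlapped, with Cxcr2 at 0 in every library. The 5 richest cells held 42.2% of the Hspa1b UMIs of the class. Fos was no longer called without AT38 1, AT38 2 or vehicle 2 (adjusted p = 0.41, 0.22 and 0.11 by edgeR), and neither gene was called in 4 other ways of choosing and clustering cells.

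**Figure D4:**
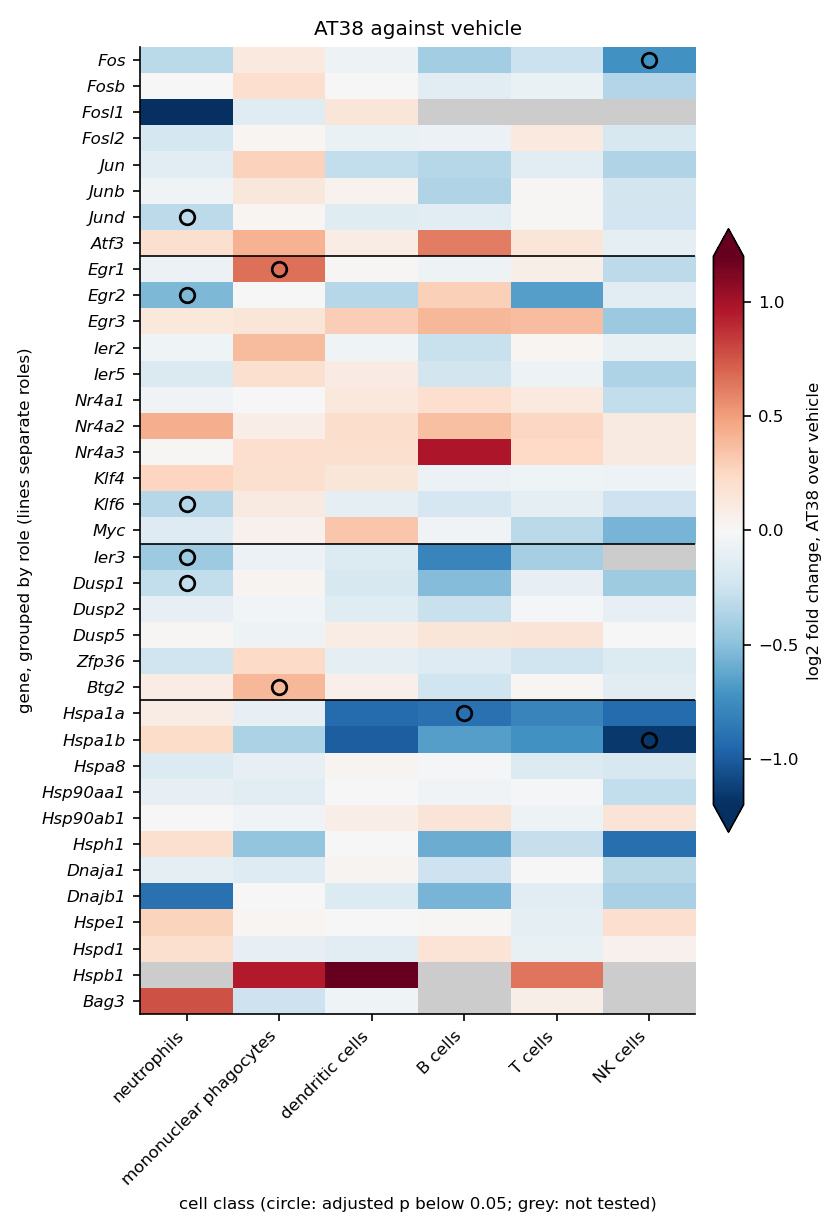
Colour gives the log2 fold change of each gene, AT38 over vehicle, in 6 classes, with circles on the 10 tests that passed and grey where a gene was not tested; values beyond 1.2 take the end colour. Early response genes are mostly red (positive) in mononuclear phagocytes and mostly blue (negative) in NK cells, and Hspa1a and Hspa1b are blue in dendritic, B, T and NK cells and pale red in neutrophils.

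The difference of the AT38 effect between classes was tested in single fits with library terms, which remove what both classes of a library share. Neutrophils differed from mononuclear phagocytes for 3 genes of the set, where 1.64% of 10563 genes were called. For Egr1 the log2 fold change was -0.07 in neutrophils and 0.66 in mononuclear phagocytes (difference -0.74 ± 0.13, adjusted p = 0.0042 by edgeR). For Zfp36 it was -0.24 in neutrophils and 0.23 in mononuclear phagocytes (difference -0.50 ± 0.12, adjusted p = 0.039 by edgeR), and for Klf6 -0.34 in neutrophils and 0.11 in mononuclear phagocytes (difference -0.48 ± 0.11, adjusted p = 0.031 by edgeR). T cells differed from mononuclear phagocytes for Egr1 alone, where 0.229% of 11330 genes were called, with log2 fold changes of 0.07 in T cells and 0.66 in mononuclear phagocytes (difference -0.57 ± 0.10, adjusted p = 0.036 by edgeR). Without AT38 2 none of the 3 differences between neutrophils and phagocytes passed (adjusted p = 0.24 to 0.39 by edgeR), without vehicle 1 or vehicle 2 Zfp36 and Klf6 did not, and Egr1 missed at 0.053 without vehicle 2. The Egr1 difference between T cells and phagocytes did not pass without vehicle 1 or vehicle 2 (adjusted p = 0.52 and 0.21 by edgeR). Without AT38 1 the number of genes that differed was 8 for neutrophils and 7 for T cells, each set against phagocytes, and without AT38 2 it was 3 for T cells, where 1.61%, 3.11% and 0.803% of all genes were called.

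T cells differed from neutrophils for 4 genes, where 1.14% of 10695 genes were called. The difference was -0.83 ± 0.13 for Hspa1a, whose log2 fold change was -0.79 in T cells and 0.09 in neutrophils, and -0.94 ± 0.15 for Hspa1b, with -0.73 in T cells and 0.22 in neutrophils (adjusted p = 3.89e-05 and 0.0035 by edgeR). For Dnajb1 the difference was 0.76 ± 0.18, with -0.13 in T cells and -0.90 in neutrophils, and for Jund 0.35 ± 0.09, with 0.02 in T cells and -0.31 in neutrophils (adjusted p = 0.027 and 0.044 by edgeR). The neutrophil value of Dnajb1 rests on few cells of 1 library: in vehicle 1 the 5 richest neutrophils held 58.1% of its UMIs, and 1 cell held 125 of 365. None of the 4 passed without vehicle 1 or without vehicle 2, where the adjusted p ran from 0.13 to 0.79 by edgeR, and Jund and Dnajb1 also missed without AT38 1 (adjusted p = 0.28 and 0.43 by edgeR).

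Averaged over the 6 classes with equal weight, Fos was lower with AT38, 1 of 33 genes tested in every class, where 0.834% of 4795 genes were called. Its log2 fold change was -0.28 ± 0.06 (adjusted p = 0.0498 by limma), and it missed the threshold without AT38 2, vehicle 1 or vehicle 2 (adjusted p = 0.39, 0.36 and 0.43 by limma). The number of genes called was 5 without AT38 1, 3 without AT38 2, 0 without vehicle 1 and 2 without vehicle 2, where 4.61%, 1.61%, 0% and 0.3% of all genes tested were called. By class, the Fos log2 fold change was -0.72 in NK cells, -0.41 in B cells, -0.32 in neutrophils, -0.26 in T cells, -0.06 in dendritic cells and 0.11 in mononuclear phagocytes. Dusp1, next in order, had -0.25 ± 0.06 (adjusted p = 0.058 by limma). Nr4a2 and Nr4a3 were on the other side, at 0.24 and 0.28 (adjusted p = 0.17 and 0.20 by limma).

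Levels of the inducible Hsp70 pair followed the library as well as the group. Hspa1a and Hspa1b together were highest in vehicle 1 in all 6 classes on the CPM scale. In T cells they were at 346 and 335 CPM with AT38 and at 844 and 343 CPM with vehicle, so that vehicle 2 could not be told from the AT38 libraries. In NK cells they were at 205 and 263 CPM with AT38 and at 586 and 432 CPM with vehicle, and in dendritic cells at 267 and 214 CPM with AT38 and at 593 and 381 CPM with vehicle, where the groups were separate. B cells had 324 and 512 CPM with AT38 and 826 and 625 CPM with vehicle. Mononuclear phagocytes had 841 and 586 CPM with AT38 and 1044 and 649 CPM with vehicle, and neutrophils 1320 and 1558 CPM with AT38 and 1636 and 712 CPM with vehicle, and in both the groups overlapped.

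**Figure D5:**
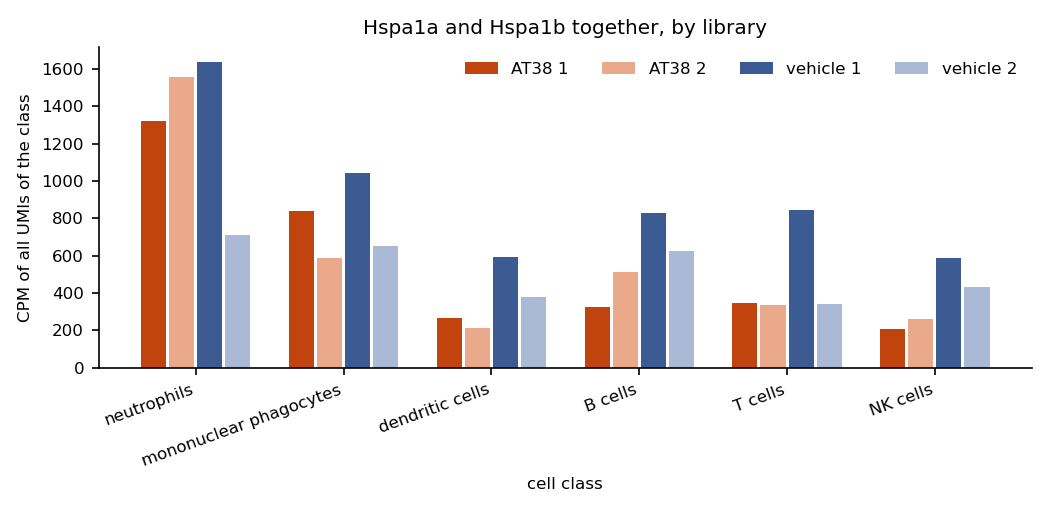
Bars give the summed CPM of Hspa1a and Hspa1b in each library for 6 classes, AT38 libraries left of vehicle libraries. The bar of vehicle 1 is the tallest in every class, 844 CPM against 335 to 346 CPM in the other T cell libraries, and the AT38 bars lie below both vehicle bars in dendritic, B and NK cells.

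The summed levels of the immediate early genes went both ways, higher with AT38 without overlap in 1 class, lower without overlap in 3 and overlapping in 2. The immediate early sum was 25154 and 22819 CPM in AT38 neutrophils and 23353 and 25594 CPM in vehicle neutrophils, groups that overlapped. It was higher in mononuclear phagocytes, at 25557 and 26468 CPM with AT38 and 23220 and 23360 CPM with vehicle, and lower in NK cells, at 24489 and 24515 CPM with AT38 and 27822 and 30501 CPM with vehicle. It was also lower in dendritic cells, at 16892 and 16221 CPM with AT38 and 17112 and 17763 CPM with vehicle, and in B cells, at 19552 and 20388 CPM with AT38 and 21286 and 25812 CPM with vehicle. T cells overlapped, at 20394 and 19166 CPM with AT38 and 20931 and 19934 CPM with vehicle. These sums were not tested. The heat shock sum was highest in vehicle 1 in all 6 classes, and without Hspa1a and Hspa1b that held in 3. In T cells the heat shock sum was 5170 and 5200 CPM with AT38 and 6147 and 5523 CPM with vehicle.

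Barcodes that had been left out bear on cell damage. In the 2270 barcodes with over 10% mitochondrial UMIs and at least 200 genes, the immediate early sum was 22148 and 16727 CPM with AT38 and 18288 and 19413 CPM with vehicle, and the heat shock sum 4119 and 3907 CPM with AT38 and 4613 and 4431 CPM with vehicle. In the kept cells the immediate early sum was 19328 and 18302 CPM with AT38 and 18778 and 20420 CPM with vehicle, and the heat shock sum 5564 and 5425 CPM with AT38 and 5802 and 5296 CPM with vehicle. The groups overlapped in both sums of the kept cells and in the immediate early sum of the left-out barcodes, the heat shock sum of the left-out barcodes was lower in both AT38 libraries, and the part of tissue dissociation in any of these levels was not tested.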

How the data were processed

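Gene counts (raw UMIs) per barcode were deposited by the authors, made with Cell Ranger 3.1.0 on mm10 per the submitters' processing notes; the gene annotation is not given in the sources used here. Barcodes with under 200 genes, under 500 UMIs or over 10% mitochondrial UMIs were left out, and doublets were removed by a score computed from simulated pairs at 0.8% per 1000 barcodes, leaving 2903 to 4683 cells and a median of 2953 to 4103 UMIs per cell and library. Cells were clustered with scanpy 1.11.5 (2000 variable genes without the 37 genes and the further early genes, 30 principal components, 15 neighbours, Leiden resolution 1) and named by markers, and differences from the study may come from these rebuilt names. T cell subsets needed a marker score over 1, a limit set after seeing the data.

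UMIs were summed per library and class and tested over all genes with edgeR 4.0.16 (quasi-likelihood, TMM, Benjamini-Hochberg, threshold 0.05), between classes with library terms in 1 fit, and over the mean of 6 classes with limma 3.58.1 (log2 CPM, prior count 2), in R 4.3.3. Alternatives were DESeq2 1.42.0, other scalings and filters, other cell choices, leaving out libraries and a replicate block; the procedure was tested on simulated data. Values per library were given for genes that passed, then for up to 4 genes per role with the smallest p in a class and up to 4 per further list. Hspa1a and Hspa1b in every class, Nr4a3 in B cells and Hspb1 in dendritic cells were named after their values were seen. The genes and lists were chosen with earlier results of these data known.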

Additional observations from a re-analysis of the deposited data

Results flagged for a closer look

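The AT38 effect differed between cell classes, by a test of the difference itself, for 8 pairs of gene and comparison. Neutrophils minus mononuclear phagocytes gave a log2 difference of -0.50 for Zfp36, -0.48 for Klf6 and -0.74 for Egr1, and T cells minus mononuclear phagocytes gave -0.57 for Egr1. T cells minus neutrophils gave 0.35 for Jund, 0.76 for Dnajb1, -0.94 for Hspa1b and -0.83 for Hspa1a. All 8 rest on 2 libraries per group, and each missed the threshold when at least 1 library was left out.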

How the results depend on the processing

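All called genes kept their direction under every alternative run. Counts of called genes moved by more than 1.5 times as follows. Except where a value itself names fewer genes or samples, the cause was not tested. The share of all genes called is not given beside these counts, so a change in count may not be particular to the set. In neutrophils (5 called) every gene with at least 1 UMI gave 8, at least 500 genes per cell gave 1, no TMM factor 3 (1 higher, 2 lower) and equal cluster weight 1. In mononuclear phagocytes (2) testing every gene gave 5, monocyte-like cells alone 0, and RLE size factors, DESeq2, a 20% mitochondrial limit, 500 genes, no doublet removal, Leiden resolution 0.5, the 37 genes kept for clustering, no TMM factor and macrophage-like cells alone gave 1 each. In dendritic cells (0) DESeq2 and testing every gene gave 2 each. In B cells (1) testing every gene and 500 genes gave 4 each, the 20% limit and no TMM factor 2 each, and no doublet removal and Leiden 0.5 gave 0. In T cells (0) testing every gene gave 2. In NK cells (2) DESeq2 gave 1, and the 20% limit, 500 genes, Leiden 0.5 and the 37 genes kept gave 0. For differences, neutrophils minus phagocytes (3) gave 6 with RLE size factors and 8 with every gene, and T cells minus phagocytes (1) gave 2 with every gene. The mean over classes (1) gave 0 with a prior count of 0.5.

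Leaving out 1 library gave 5 to 9 called genes in neutrophils, 0 to 5 in mononuclear phagocytes, 0 to 3 in dendritic cells, 2 to 5 in B cells, 0 to 3 in T cells, 1 to 3 in NK cells, 0 to 8 for neutrophils minus phagocytes, 0 to 7 for T cells minus phagocytes, 0 to 4 for T cells minus neutrophils and 0 to 5 for the mean. The share of all genes called in these fits ran from 3.82% to 6.13% in neutrophils, 0.548% to 3.99% in mononuclear phagocytes, 0% to 3.06% in dendritic cells, 0.523% to 1.41% in B cells, 0% to 0.423% in T cells, 0.0396% to 0.278% in NK cells and 0% to 4.61% for the mean. For the differences between classes no range of this share is given, so those counts cannot be set against all genes. The highest class of a gene was the same for 32 to 37 of 37 genes, and for 35 without doublet removal. A class was missing in the other clusterings, which gave no value.

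The shared replicate numbers were not used to pair the libraries in the main fits. Correlations of same-numbered deviations ran from -0.039 to 0.17. With 2 libraries per group they cannot tell whether same-numbered libraries were prepared together. With the replicate block, called genes (and the share of all genes called) numbered 4 in neutrophils (5.8%), 4 in mononuclear phagocytes (3.09%), 1 in dendritic cells (0.0273%), 4 in B cells (0.793%), 3 in T cells (0.8%), 1 in NK cells (0.0388%) and 6 for the mean (2.29%). With 2 pools per group, and few UMIs for Fosl1, Hspb1 and Bag3, small differences were not detectable at this depth. The alternatives without a TMM factor, on neutrophil clusters and on levels without a library were chosen after seeing the data.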
